A study of Mus musculus with 12 samples.

Results

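Integrins are the cell surface receptors that anchor cells to the extracellular matrix, and focal adhesions are the protein assemblies that tie them to the actin cytoskeleton. The genes described here encode both, and they were measured in dorsal root ganglia (DRG) of 12 mice, 6 per genotype. They were taken as 40 listed gene symbols out of a table of 49315 genes: 18 integrin alpha subunits, 8 beta subunits and 14 proteins of the adhesion core. The symbols matched 41 rows, because Itgam stood for a second row with at most 7 counts in any mouse, which GENCODE lists as the readthrough gene Gm49368. Itgad, which had at most 0.383 CPM (the count relative to the library total) in any mouse, and that second row were too low to test, which left 39 of the 18295 genes tested.

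Both genotypes carried Postn-Cre, a recombinase driven by the Periostin promoter that is active in the Schwann cell lineage, and both carried Nf2 flox/flox. The Nf2 mice had no further allele, while the DKO mice also carried Fak1 flox/flox, so both lacked Nf2 in recombined cells and only the DKO mice also lacked Fak. Fak is focal adhesion kinase, annotated as Ptk2, the kinase that focal adhesions recruit and activate. All mice were 10 months old, 8 ganglia were taken from each, and 3 mice of each genotype were labelled male and 3 female. Whole ganglia also hold neurons, satellite glia, vessels, meninges and leukocytes that the Cre need not have reached, and there was no Cre-negative or Nf2-intact group.

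Every integrin is a heterodimer of an alpha and a beta chain, and the pairing sets the ligand. The laminin receptors bind the basal lamina that wraps Schwann cells and satellite glia, the collagen receptors bind interstitial matrix, and the RGD receptors recognise a short peptide motif of fibronectin, vitronectin and latent TGF-beta. Talins and kindlins bind the beta tail and switch the receptor on, vinculin reinforces the link to actin, and a complex of ILK, a PINCH protein (Lims1 or Lims2) and a parvin passes force and signals inward. In Schwann cells the laminin receptors are known for their part in axonal sorting and in holding myelin to the basal lamina.

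The libraries held 21129191 to 41250329 counts. The 10 Schwann cell markers summed to 8778 to 12475 CPM and the 11 sensory neuron markers to 9187 to 12682 CPM over the 12 mice, so the tissue matched its label. Ptk2, from whole-gene counts, had a log2 fold change (called log2 difference below, DKO minus Nf2) of -0.15 ± 0.10 (SE; edgeR adjusted p = 0.529) and did not separate the genotypes. Nf2 had one of -0.14 ± 0.08 (edgeR adjusted p = 0.435). Mouse 702 (Nf2), labelled male, had 496 CPM of Xist and 0.525 CPM of Ddx3y, as in the mice labelled female. Mouse 649 (Nf2) and mouse 887 (DKO) stood apart with 4.45% and 5.60% of counts from mitochondrial genes, against 1.99% to 3.15% in the other mice. Of the 39 tested genes, 24 were lowest in mouse 649 among Nf2 mice, and 15 each were lowest in mice 886 and 887 among DKO mice. The same count was not made over all genes, so whether it is particular to these genes was not tested.

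One integrin gene passed the test between genotypes. Itga8, the alpha chain that pairs with beta1 into a receptor for nephronectin and other RGD ligands, fell 2.23-fold in DKO mice. It lies on chromosome 2 of GRCm38, from 12106632 to 12301922 on the minus strand. The 250 bases before its annotated start are shown here because it was the gene that changed, and those of Parvg because it was the member with the next smallest p. Capitals mark a match to GAGGAA on either strand, a core of the motif of PU.1, the myeloid transcription factor.

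Itga8, chr2:12301945-12302194, minus strand, GRCm38.p6: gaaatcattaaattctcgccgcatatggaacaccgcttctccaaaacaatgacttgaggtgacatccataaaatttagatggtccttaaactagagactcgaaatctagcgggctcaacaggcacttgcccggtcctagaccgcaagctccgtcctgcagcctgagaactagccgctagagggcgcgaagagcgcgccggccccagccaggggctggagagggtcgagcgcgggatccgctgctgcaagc
Parvg, chr15:84324470-84324719, plus strand, GRCm38.p6: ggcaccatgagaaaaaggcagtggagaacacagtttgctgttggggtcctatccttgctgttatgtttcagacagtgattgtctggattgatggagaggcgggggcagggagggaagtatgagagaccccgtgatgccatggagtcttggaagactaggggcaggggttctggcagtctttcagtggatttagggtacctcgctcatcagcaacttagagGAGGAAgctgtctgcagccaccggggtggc

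Both sequences are from RefSeq, whose table held 35 promoters for 29 of the 40 genes. Windows ended at the RefSeq start site. GENCODE starts Parvg further upstream, at 84324026, so its window lies inside the GENCODE gene. RefSeq also lists a second start of Parvg, whose window at chr15:84325869-84326118 held no PU.1 match. Beside PU.1, motifs of factors that act on adhesion and Hippo target genes were looked for on both strands: TEAD (GGAATG), AP-1 (TGANTCA) and the CArG box of serum response factor. The window of Itga8 held no match to any of the 4. Over the 35 windows, PU.1 matches occurred in 11, against 23.3% of all 32851 promoters, TEAD in 3 against 12.6%, AP-1 in 2 against 6.75% and the CArG box in 3 against 1.47%. The CArG boxes lay before Vcl, Fermt2 and Itgb6. The TEAD and PU.1 matches of Itgb1 shared bases. A match is a stretch of letters in the window and no measurement of binding.

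The adhesion receptors of these ganglia were first ranked by level, so that each change could be read against how abundant the gene was. Levels between genes were compared as RPKM, which is CPM per kilobase of exon. Itgb1, the beta chain shared by most matrix receptors, led with 121 ± 8.93 RPKM (SD, n = 12) and ranged from 106 to 135 RPKM, above every other member in all 12 mice. Tns1 followed with 36.8 ± 2.93, Fermt2 with 35.9 ± 3.19, Tln1 with 33.9 ± 4.08, Itgb4 with 33.2 ± 3.61, Itga6 with 31.1 ± 5.96 and Tns3 with 30.4 ± 4.97 RPKM. The range of each of these genes overlapped that of the next. Within mice, each was above the next in 7 to 10 of the 12, so the order of neighbours did not hold in every mouse. In all, 18 of the 39 genes had a mean over 10 RPKM and 5 had one under 1 RPKM. Itgb6, an epithelial beta chain, was lowest with 0.163 ± 0.047 RPKM.

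**Figure D1:**
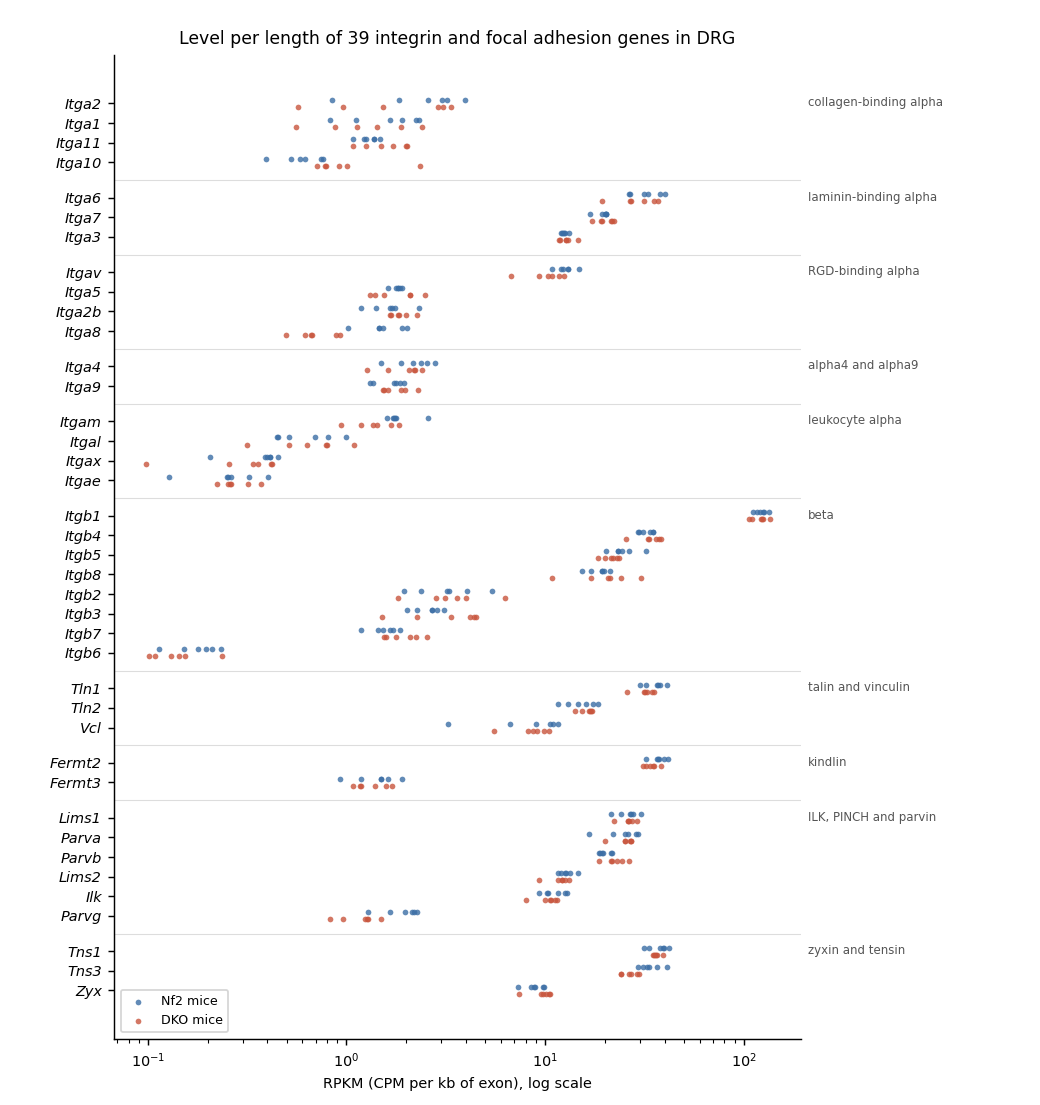
Level per length of the 39 tested genes, grouped by role, with RPKM on a log axis and 1 point per mouse (blue, 6 Nf2 mice; red, 6 DKO mice). Itgb1 stands alone at 106 to 135 RPKM, and the points of the genotypes lie over each other for every gene but Itga8.

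Among the alpha chains, the laminin receptors dominated. Itga6, Itga7 and Itga3 together held 65.2% to 72.1% of the summed alpha chain RPKM in each of the 12 mice. Itga6, which pairs with Itgb4 or Itgb1, took 33.3% on average, Itga7 took 21.6%, Itga3 took 13.8% and Itgav, the main RGD chain, took 12.3%. No other alpha chain took more than 2.40% on average. Itga8 took 1.62% ± 0.28 in Nf2 mice and 0.817% ± 0.284 in DKO mice (SD, n = 6 each). Among the beta chains, Itgb1 took 59.0%, Itgb4 took 16.2%, Itgb5 took 11.3% and Itgb8 took 9.47%.

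Setting DKO against Nf2 ganglia asked whether adding Fak loss to Nf2 loss altered the expression of the receptors that signal to Fak. Over all 18295 genes, 0.94% passed an edgeR adjusted p of 0.05, and 0.568% passed it in the lower direction. Of the 39 members, 1 passed, Itga8, and it was lower. The median log2 difference of the members was -0.03, against 0.005 over all genes, with 17 above 0 and 22 below. In 36 of the 39 the log2 difference was within 0.5 of 0 in either direction, as it was in 16737 of all 18295 genes. At an unadjusted p under 0.05 there were 8 of the 39 (20.5%), against 14.9% of all genes. Of these 8, 7 were lower in DKO mice, where 1457 of the 2722 such genes in the whole table were lower. DESeq2 called 3 members, where it called 4.64% of all genes, and limma voom with sample quality weights called the same 3, where it called 2.85%. These were Itga8, Parvg and Tns3.

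**Figure D2:**
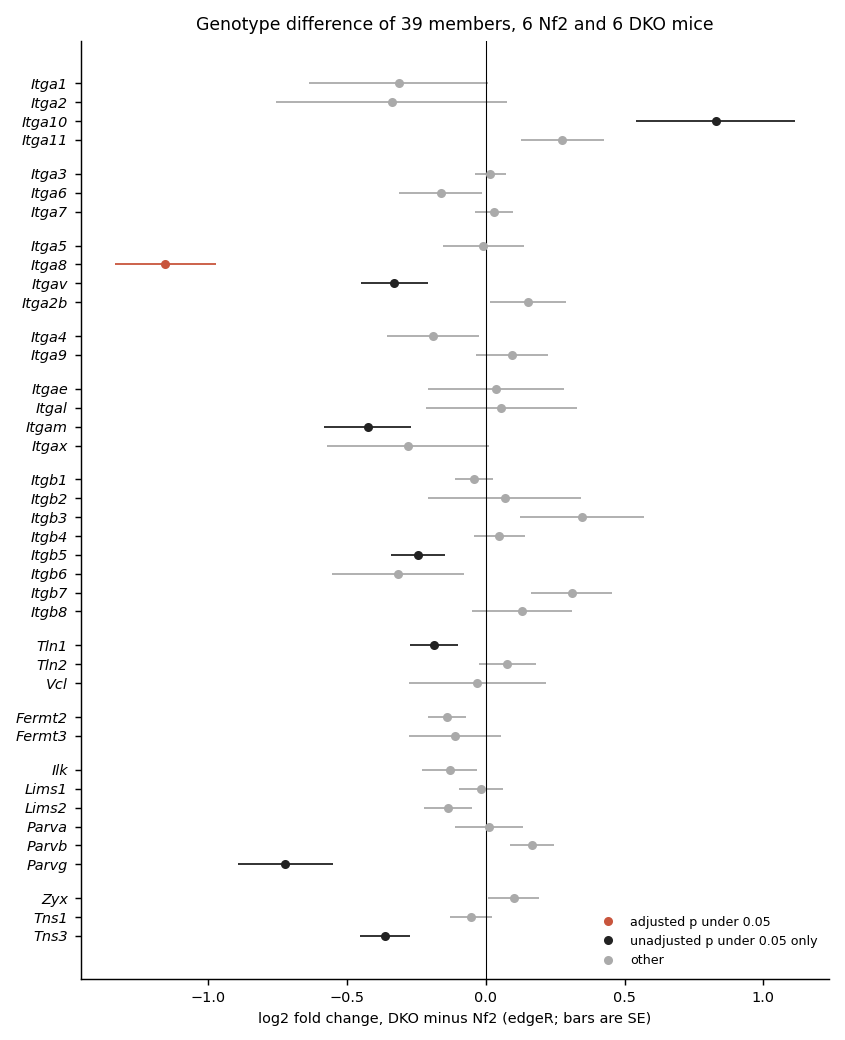
The log2 difference of each tested gene in DKO against Nf2 mice from edgeR, with bars of 1 SE, in order of role. Itga8 (red) lies at -1.16, Itga10 and Parvg (black) are the only others beyond 0.5, and the gene names run from alpha chains at the top to zyxin and tensins at the bottom.

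Among Nf2 mice, Itga8 reached 7.50 CPM in 649, 14.9 in 702, 10.7 in 884, 11.2 in 918, 10.7 in 1048 and 14.1 in 1049. Among DKO mice, Itga8 reached 3.64 CPM in 885, 6.86 in 886, 4.87 in 887, 4.53 in 914, 6.55 in 915 and 4.97 in 917. Every DKO mouse lay below every Nf2 mouse. Of all genes tested, 1.95% had genotypes that did not overlap, and Itga8 was the only member among them. The means were 11.5 ± 2.65 and 5.24 ± 1.23 CPM (SD, n = 6), and 96 to 396 reads per mouse lay behind them. The log2 difference was -1.16 ± 0.18 (SE; edgeR adjusted p = 0.0089). Both labelled sexes showed it, with 12.0 against 5.12 CPM in females and 11.0 against 5.35 CPM in males (n = 3 each), although within females or males alone, with 3 mice a side, it did not pass (edgeR adjusted p = 0.138 and 0.318). The male Nf2 mean includes mouse 702, the highest value, whose Xist and Ddx3y levels were those of females. In males without mouse 702 the log2 difference was -0.81 (edgeR adjusted p = 0.553), against -1.09 with it. With 1 of the 12 mice left out at a time, the adjusted p stayed between 0.0047 and 0.027, and without mice 649 and 887 the log2 difference was -1.25 (edgeR adjusted p = 0.0065).

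In bulk tissue, fewer cells of a type and less RNA per cell cannot be told apart. Of the cell types that could carry Itga8, the pericyte and smooth muscle markers (10 genes, 1 of them under 1 CPM) summed to 171 to 257 CPM in Nf2 and 158 to 224 CPM in DKO mice. The fibroblast markers (8 genes) summed to 279 to 488 and 258 to 524 CPM. None of either list passed the test. In log2 difference, 6 of the 10 pericyte and smooth muscle markers were above 0 and 4 below. Of the 8 fibroblast markers, 7 were above 0 and 1 below, where 9338 of all 18295 genes were above 0. At an unadjusted p under 0.05 there were 2 of the 10 pericyte and smooth muscle markers, against 14.9% of all genes. Both were lower in DKO mice. They were Des, which skeletal muscle also expresses, with a log2 difference of -1.75 (edgeR adjusted p = 0.112), and Abcc9 with one of -0.41 (edgeR adjusted p = 0.303). The skeletal muscle markers (11 genes) summed to 52.3 to 1011 and 62.2 to 355 CPM. Of the 11, 9 had an unadjusted p under 0.05, all lower in DKO mice, against 14.9% of all genes. With the skeletal muscle level as a covariate, Itga8 had a log2 difference of -1.27 (edgeR adjusted p = 0.028). The exons of Itga8 overlapped E030013I19Rik on the other strand over 5.05% of their length.

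Its partners did not pass the test. Itgb1, with which Itga8 must pair, ranged from 453 to 544 CPM (median 502) in Nf2 mice and from 434 to 551 CPM (median 501) in DKO mice, a log2 difference of -0.04 ± 0.07 (SE; edgeR adjusted p = 0.818). Nephronectin (Npnt), a high-affinity Itga8 ligand, ranged from 2.26 to 3.82 CPM in Nf2 and from 1.18 to 3.66 CPM in DKO mice, with a log2 difference of -0.40 ± 0.23 (SE; edgeR adjusted p = 0.443).

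**Figure D3:**
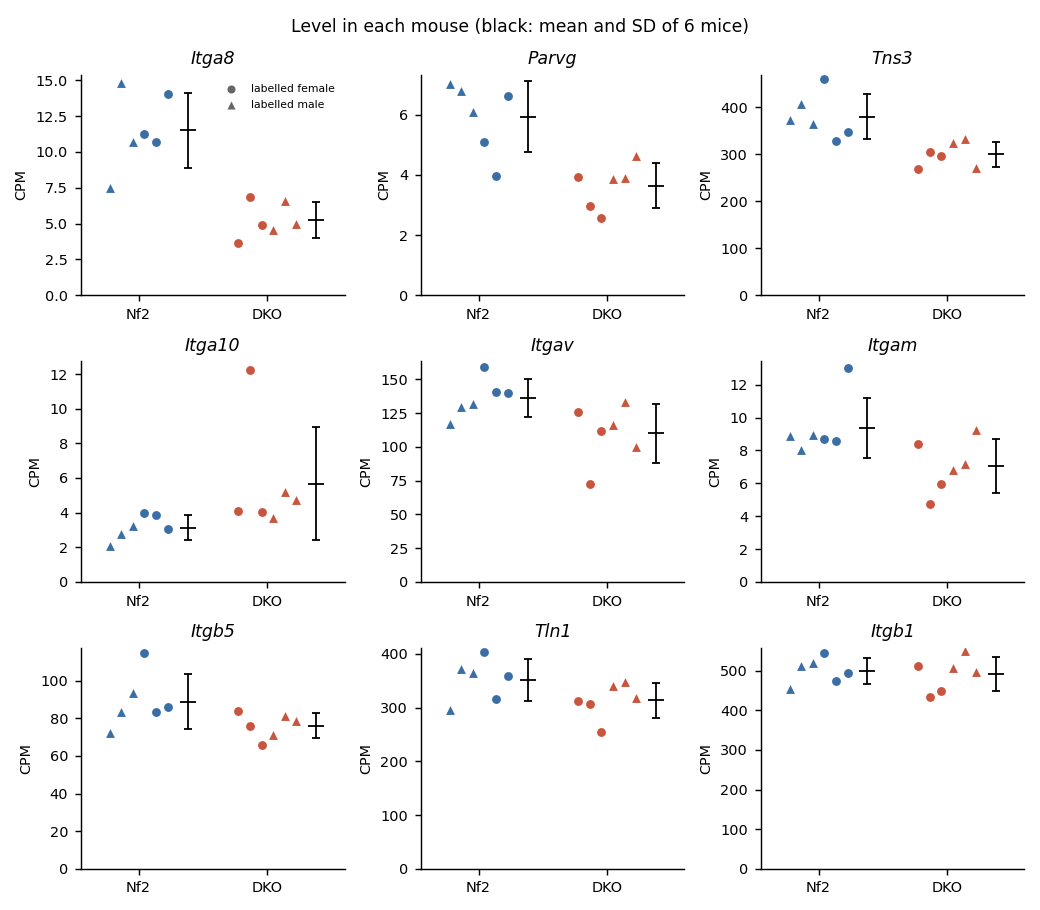
CPM in each mouse (circles, labelled female; triangles, labelled male) of the 8 members with an unadjusted p under 0.05 and of Itgb1, with the mean and SD of 6 mice in black and all axes from 0. The Itga8 values of 3.64 to 6.86 CPM in DKO mice lie below all 6 Nf2 values, whereas in the other 8 panels the genotypes overlap.

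Of the other RGD chains, Itgav partners several beta chains and can release active TGF-beta from its latent form. It ranged from 117 to 159 CPM (median 136) in Nf2 mice and from 72.6 to 134 CPM (median 114) in DKO mice, a log2 difference of -0.33 ± 0.12 (SE; edgeR adjusted p = 0.212). The lowest value was that of mouse 886, and the genotypes overlapped. Its partner Itgb5 ranged from 72.2 to 115 CPM (median 84.7) and from 65.9 to 83.8 CPM (median 77.2), with a log2 difference of -0.24 ± 0.10 (SE; edgeR adjusted p = 0.246). Neither passed the test. Itga5, the fibronectin receptor chain, had 8.88 ± 0.494 and 8.97 ± 2.32 CPM, and Itga2b, the platelet chain, 9.10 ± 2.07 and 10.2 ± 1.24 CPM (SD, n = 6).

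No laminin-binding chain passed the test. Itga6 ranged from 240 to 360 CPM (median 291) in Nf2 mice and from 175 to 335 CPM (median 265) in DKO mice, with its lowest value in mouse 886 (log2 difference -0.16 ± 0.15, edgeR adjusted p = 0.668). Itga7 had 158 ± 11.3 and 163 ± 15.4 CPM, Itga3 had 71.2 ± 2.15 and 73.0 ± 5.96 CPM, and Itgb4 had 227 ± 17.6 and 238 ± 32.1 CPM (SD, n = 6). The SE of the log2 difference was 0.069 for Itga7 and 0.055 for Itga3, among the smallest of the members.

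No collagen-binding chain passed the test. Itga2 ranged from 6.01 to 28.2 CPM (median 19.9) in Nf2 mice and from 4.09 to 23.9 CPM (median 15.8) in DKO mice, and mice 649, 886 and 887 had the 3 lowest values. Itga1 had 31.3 ± 11.2 and 25.6 ± 12.6 CPM, and Itga11 had 6.64 ± 0.713 and 8.16 ± 1.97 CPM (SD, n = 6). Itga10, a collagen receptor of cartilage and other connective tissue, ranged from 2.04 to 3.96 CPM (median 3.12) in Nf2 mice and from 3.68 to 12.2 CPM (median 4.42) in DKO mice. Its log2 difference was 0.83 ± 0.29 (SE; edgeR adjusted p = 0.185). Mouse 886 alone had 12.2 CPM, and without it the log2 difference was 0.45 (edgeR adjusted p = 0.265). In mouse 886 the perineurium and meninges markers (10 genes, 1 under 1 CPM) summed to 1635 CPM, against 165 to 372 CPM in Nf2 and 245 to 705 CPM in the other DKO mice. Their part in the Itga10 value was not tested. Itga10 also shared 33.5% of its exon length with Gm42957 on the same strand, so its counts are uncertain.

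Several members are leukocyte genes. Itgam, Itgal and Itgax pair with Itgb2 into the receptors by which myeloid and lymphoid cells adhere, Fermt3 is the kindlin of blood cells, and Parvg is the parvin of the blood lineage. Its level in Nf2 animals was 7.03 CPM in 649, 6.79 in 702, 6.12 in 884, 5.11 in 918, 3.96 in 1048 and 6.62 in 1049. Its level in DKO animals was 3.95 CPM in 885, 2.98 in 886, 2.56 in 887, 3.85 in 914, 3.92 in 915 and 4.62 in 917. The genotypes overlapped only through mouse 1048, which was below mouse 917. The log2 difference was -0.72 ± 0.17 (SE; edgeR adjusted p = 0.068), and without mouse 1048 it was -0.82 with an edgeR adjusted p of 0.026. Without any 1 of the other 11 mice it did not pass (edgeR adjusted p = 0.080 to 0.130).

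Itgam ranged from 8.03 to 13.0 CPM (median 8.79) in Nf2 mice and from 4.73 to 9.24 CPM (median 6.99) in DKO mice, a log2 difference of -0.43 ± 0.16 (SE; edgeR adjusted p = 0.214). Its exons were shared over 68.7% of their length with the readthrough gene Gm49368, and reads of that stretch may be split or dropped. Itgb2 had 10.3 ± 3.76 and 11.0 ± 4.57 CPM, Itgal had 4.29 ± 1.46 and 4.53 ± 1.75 CPM, and Fermt3 had 8.30 ± 1.96 and 7.79 ± 1.43 CPM (SD, n = 6). Beside these values, the 15 macrophage markers summed to 385 to 589 CPM in Nf2 and 347 to 515 CPM in DKO mice. Of the 15, 13 were below 0 in log2 difference, where 8957 of all 18295 genes were. C1qb was the 1 of the 15 past the test, where 0.94% of all genes passed. At an unadjusted edgeR p under 0.05 there were 10 of the 15, 9 lower and 1 higher in DKO mice, against 14.9% of all genes. The 8 neutrophil markers summed to 9.58 to 525 and 15.1 to 443 CPM, highest in mice 1049 and 917, which also had the highest Itgb2 of their genotypes at 16.5 and 19.1 CPM. The part of these cells in the values of Parvg, Itgam and Itgb2 was not tested.

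Of the other chains, Itga4, a receptor for VCAM1 and fibronectin, ranged from 20.9 to 39.0 CPM (median 31.6) in Nf2 and from 17.8 to 33.7 CPM (median 29.8) in DKO mice (log2 difference -0.19 ± 0.17, edgeR adjusted p = 0.651). Itga9 had 12.8 ± 2.05 and 13.9 ± 2.33 CPM. Itgb3 had 15.4 ± 2.32 and 19.9 ± 7.25 CPM, Itgb7 had 4.33 ± 0.653 and 5.44 ± 1.08 CPM, and Itgb8 had 206 ± 23.3 and 229 ± 73.2 CPM (SD, n = 6). None of them passed the test.

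The adhesion core gave no call by edgeR in 14 genes, 3 of which had an unadjusted p under 0.05 and 10 of which had a log2 difference below 0. Over all genes tested, 14.9% had such a p, and 8957 of the 18295 had a log2 difference below 0. Tns3, a tensin that links integrin tails to actin and to phosphotyrosine signals, reached 373 CPM in 649, 407 in 702, 363 in 884, 460 in 918, 328 in 1048 and 348 in 1049, all Nf2 mice. The DKO mice gave 269 CPM in 885, 304 in 886, 297 in 887, 324 in 914, 331 in 915 and 271 in 917. One DKO mouse, 915, lay above the lowest Nf2 mouse, 1048. The log2 difference was -0.36 ± 0.09 (SE; edgeR adjusted p = 0.079). Tns1, the more abundant tensin, ranged from 502 to 671 CPM (median 617) and from 560 to 628 CPM (median 577), with a log2 difference of -0.05 ± 0.08 (SE; edgeR adjusted p = 0.802).

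Talin-1 (Tln1), the main link from the beta tail to actin, ranged from 295 to 403 CPM (median 362) in Nf2 mice and from 255 to 348 CPM (median 315) in DKO mice, a log2 difference of -0.19 ± 0.09 (SE; edgeR adjusted p = 0.334). Its lowest values were those of mice 649 and 887. Tln2 had 279 ± 47.4 and 298 ± 22.1 CPM (SD, n = 6). Vinculin (Vcl) had 71.2 ± 26.2 and 70.8 ± 14.1 CPM, with 26.7 CPM in mouse 649 and 45.2 CPM in mouse 887 as the lowest of their genotypes, and 25.5% of its exon length overlapped Ap3m1 on the other strand. Kindlin-2 (Fermt2) ranged from 166 to 217 CPM (median 194) and from 162 to 199 CPM (median 179), with a log2 difference of -0.14 ± 0.07 (SE; edgeR adjusted p = 0.357).

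In the complex of ILK, PINCH and parvin, Lims1 ranged from 105 to 148 CPM (median 132) in Nf2 mice and from 109 to 142 CPM (median 129) in DKO mice (log2 difference -0.02 ± 0.08, edgeR adjusted p = 0.945). Parva had 251 ± 48.4 and 256 ± 27.2 CPM, Parvb had 88.1 ± 5.47 and 100.2 ± 11.9 CPM, Lims2 had 39.3 ± 3.36 and 36.3 ± 4.11 CPM, and zyxin (Zyx), a focal adhesion protein outside the complex, had 47.8 ± 5.19 and 51.9 ± 6.38 CPM (SD, n = 6). Ilk had 30.6 ± 3.90 and 28.4 ± 3.42 CPM, but 89.7% of its exon length overlapped Rrp8 or Taf10 on the other strand, and whether the counting used strand was not stated. None of these differences passed the test.

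Labelled sex made no difference that passed the test, but these fits kept mouse 702 as male, so they can miss a sex difference. Between males and females, Ddx3y passed (log2 difference 7.29, edgeR adjusted p = 0.029) and Xist did not (-4.30, edgeR adjusted p = 0.99989). With 1 mouse left out at a time, mouse 702 included, 0 members passed for sex or for its interaction with genotype. Between males and females, with genotype as a covariate, 0 of the 39 members passed by edgeR, where 0.0164% of all genes did, 0 by DESeq2, where 0.0274% did, and 0 by limma voom, where 0% did. At an unadjusted edgeR p under 0.05 there was 1 member, against 2.91% of all genes. It was Parvg, with a log2 difference of 0.37 in males over females. For the interaction of genotype and sex, 0 members passed by edgeR, DESeq2 or limma voom, which called 0.0109%, 0.109% and 0.0109% of all genes. None had an unadjusted edgeR p under 0.05 (0 of 39), against 4.78% of all genes.

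Since integrin chains work only as pairs, the levels of known partners were compared across mice. For 19 pairs of partners, Pearson's r of log2(CPM + 4) was computed over the 12 mice as deviations from the genotype mean, with a two-sided exact permutation test within genotype. After Benjamini-Hochberg adjustment over the 19 pairs, 9 passed 0.05, all with a positive r. Genes that are not partners were not compared, so whether partners correlate more often than other genes was not tested. The closest of the 9 were pairs of the leukocyte receptors. Itgal and Itgb2 had r = 0.92 (exact permutation p = 0.00022, adjusted p = 0.0021) and rho = 0.88 (permutation p = 0.0010, adjusted p = 0.0095), with r = 0.87 within Nf2 and 0.96 within DKO mice. Fermt3 and Itgb2 had r = 0.91 (exact permutation p = 3.67e-05, adjusted p = 0.0007) and rho = 0.91 (permutation p = 0.00024, adjusted p = 0.0045). Without the 2 mice farthest from the median of the first gene, r was 0.85 (exact permutation p = 0.0061) and 0.89 (exact permutation p = 0.00087).

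Of the matrix receptors, Itga1 and Itgb1 had r = 0.86 (exact permutation p = 0.0017, adjusted p = 0.0069) and rho = 0.78 (permutation p = 0.0086, adjusted p = 0.032), and r = 0.88 (exact permutation p = 0.0022) without the 2 farthest mice. Itgb8 and Itgav, which together bind latent TGF-beta, had r = 0.89 (exact permutation p = 0.0021, adjusted p = 0.0069) and rho = 0.71 (permutation p = 0.021, adjusted p = 0.044). Without the 2 farthest mice this fell to r = 0.58 (exact permutation p = 0.10), so it did not hold without both of them. With 1 mouse left out at a time it passed each time (r from 0.69 to 0.92), as it did without mice 649 and 887 (r = 0.92, exact permutation with adjusted p = 0.032).

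The other 5 pairs past 0.05 were Ilk with Parva and with Lims1, Itga7 and Itga9 with Itgb1, and Itgam with Itgb2, with r from 0.72 to 0.86. Each of the 5 had an exact permutation p over 0.05 without its 2 farthest mice, with r at 0.72 for Ilk and Parva, 0.63 for Itga9 and Itgb1, 0.59 for both Ilk and Lims1 and Itga7 and Itgb1, and 0.34 for Itgam and Itgb2. Without mice 649 and 887, the mice of highest mitochondrial share, 4 pairs passed, namely Itgal and Itgb2, Fermt3 and Itgb2, Itga1 and Itgb1, and Itgb8 and Itgav. Itga8 and Itgb1 had r = 0.16 (exact permutation p = 0.613, adjusted p = 0.728) and rho = -0.03 (permutation p = 0.940, adjusted p = 0.940), and Itga2b and Itgb3, the platelet pair, had r = 0.009 (exact permutation p = 0.974, adjusted p = 0.974).

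**Figure D4:**
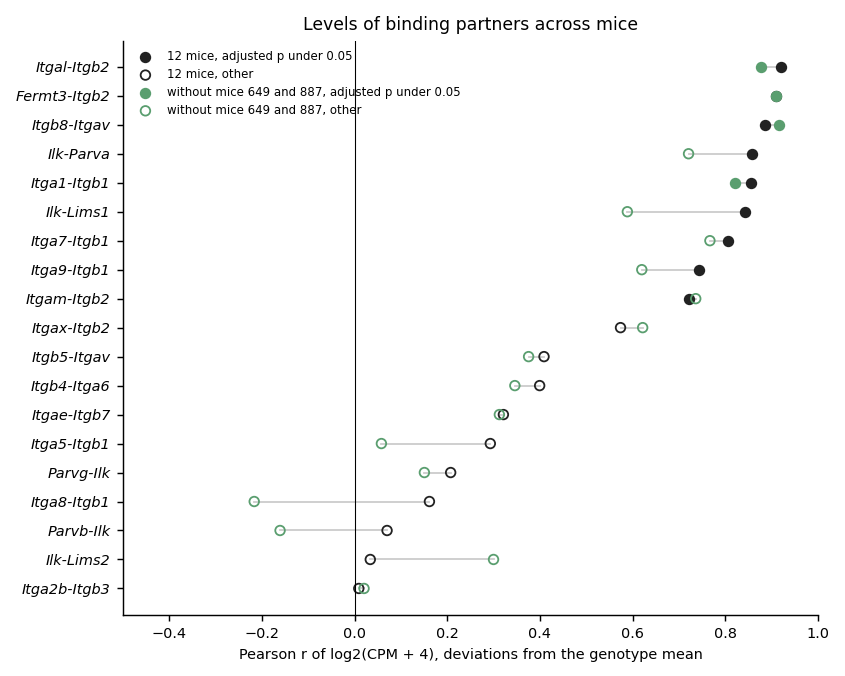
Pearson r of log2(CPM + 4) for 19 pairs of binding partners, as deviations from the genotype mean, over 12 mice (black) and without mice 649 and 887 (green), with filled points past an adjusted p of 0.05. The leukocyte pairs Itgal-Itgb2 and Fermt3-Itgb2 stay near 0.9 in both, while Ilk-Lims1 moves from 0.84 to 0.59.

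The wider integrin pathway was then read from 4 lists of other genes, 113 of which were tested. Of these 113, 1 rose and 1 fell, where 0.372% of all genes passed in the higher and 0.568% in the lower direction, and the median log2 difference was -0.07. Rap1a, the small GTPase that recruits talin to integrins, fell among 29 kinases and adaptors. It had 149 to 170 CPM (median 159) in Nf2 mice and 107 to 140 CPM (median 126) in DKO mice, with no overlap, and a log2 difference of -0.36 ± 0.06 (SE; edgeR adjusted p = 0.017). Cav1, the caveola protein that associates with integrins, rose among 30 other scaffolds. It had 54.8 to 65.2 CPM (median 60.6) in Nf2 mice and 69.9 to 88.5 CPM (median 76.2) in DKO mice, with no overlap, and a log2 difference of 0.34 ± 0.07 (SE; edgeR adjusted p = 0.027). Without mouse 917 neither passed (edgeR adjusted p = 0.054 for Rap1a and 0.071 for Cav1). With the skeletal muscle level as a covariate neither passed (edgeR adjusted p = 0.070 and 0.056), while the log2 differences were -0.36 and 0.39. Rap1a was also lost without mouse 918 (edgeR adjusted p = 0.055), and Cav1 without any 1 of mice 702, 884, 914 and 1049 (0.054 to 0.061).

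The other genes of these lists did not pass by edgeR over all 12 mice. DESeq2, which called 4.64% of all genes, also called Lasp1, Pdlim1, Rac1, Tgfb3 and Vtn. By limma voom, which called 2.85%, Lasp1 and Vtn were called too. With 1 mouse left out, edgeR called Vtn without mouse 887 and Lasp1 without mouse 1048. The values below are from edgeR over all mice. Among the kinases and adaptors, Elmo1, a Rac activator, had a log2 difference of 0.26 (edgeR adjusted p = 0.143), Rac1 one of -0.21 (0.158) and Src, the kinase that partners Fak, one of -0.24 (0.161). Among the scaffolds, the LIM proteins Lasp1 and Pdlim1 had log2 differences of -0.28 (0.085) and -0.40 (0.128), and Enah, an actin polymerisation factor, one of 0.21 (0.243). Of 16 integrin regulators, 0 passed, and the smallest p-values were those of Cd82 (-0.29, 0.158), Dab2 (0.33, 0.176), Rab21 (-0.15, 0.224) and Emp2 (-0.31, 0.281). Of 38 ligands, 0 passed by edgeR. Vitronectin (Vtn), a ligand of Itgav receptors, had a median of 17.4 CPM in Nf2 and 37.8 CPM in DKO mice, up to 81.3 CPM in mouse 886, with a log2 difference of 1.26 ± 0.30 (SE; edgeR adjusted p = 0.073). Tgfb3 and Tgfb1 had log2 differences of -0.31 (0.079) and -0.32 (0.153), and Jam3, a ligand of Itgam with Itgb2, one of -0.18 (0.171). At an unadjusted edgeR p under 0.05 there were 8 of the 29 kinases and adaptors and 5 of the 30 scaffolds. There were also 5 of the 16 regulators and 7 of the 38 ligands. The share over all genes was 14.9%.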

How the data were processed

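Per the labels, DRG were flash frozen, and a commercial provider extracted RNA with DNase treatment and made libraries with poly(A) selection. The authors deposited raw read counts, 1 whole number per Ensembl gene and mouse, with no normalization. The submitters' processing notes name Trimmomatic 0.36, STAR 2.5.2b, featureCounts, Subread 1.5.2 and GRCm38, without settings, and how strand and reads shared by genes were handled is not given in the sources used here.

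Of 49315 gene IDs, 49056 were present in GENCODE M21 (GRCm38), which gave coordinates, exon lengths and shared exons. Counts were tested in R 4.3.3 with edgeR 4.0.16 (filterByExpr by genotype, TMM scaling, quasi-likelihood F test without covariates, Benjamini-Hochberg adjustment over all 18295 genes, threshold 0.05). The SE was the log2 fold change over the root of F. The totals of 21129191 to 41250329 counts set the precision, and a tested member had at least 11 counts in every mouse. The alternatives were DESeq2 1.42.0, limma 3.58.1 voom, other scaling and filters, labelled sex or skeletal muscle level as a covariate, subsets of mice and leaving out each mouse. The fit without mice 649 and 887 was added after the values were seen. CPM, pair tests and figures were made in Python 3.11.15. The fits were also run on simulated counts, drawn without effects shared by the genes of a mouse. No result given here rests on that run.

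Members and lists were chosen with earlier results of these data known. Members were described by mouse where they passed a test, did not overlap, had an unadjusted genotype p under 0.05, partnered a called member or led their role group in RPKM, and up to 4 genes of each other list were named by p.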

Additional observations from a re-analysis of the deposited data

Results flagged for a closer look

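In groups of 6 mice, a mouse was set apart where its gap to the nearest other mouse took an unusually large part of the group's range of log2(CPM + 4). Of 78 groups examined, 7 held such a mouse, and chance alone sets apart about 1 group in 20. Itga10 was highest in DKO mouse 886 (4.02, nearest other 3.20). Itgam was highest in Nf2 mouse 1049 (4.09, nearest 3.70). Itga7 was lowest in Nf2 mouse 649 (7.13, nearest 7.33), and Itgax in Nf2 mouse 1048 (2.32, nearest 2.55). Itgb4 was lowest in DKO mouse 917 (7.52, nearest 7.88). Parva and Zyx were lowest in DKO mouse 887 (7.70, nearest 8.02, and 5.45, nearest 5.79), 1 of the pair of mice with the highest mitochondrial share. No member had genotype differences that were free of overlap in both labelled sexes and opposite in direction.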

How the results depend on the processing

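The call of Itga8 kept its direction under all 25 alternatives and its side of the threshold under 22 of them. Females only, males only, and males without mouse 702 gave 0 members and 0 pathway genes past the threshold, with 6, 6 and 5 mice in the fit. Among members, DESeq2 and limma voom called 3 and labelled sex as a covariate called 2, and leaving out 1 mouse gave 1 to 2. For fits on subsets of mice, with a covariate or with 1 mouse left out, the share over all genes was not computed. Their counts of members and pathway genes thus have no such share to be read against. Among the 113 pathway genes, DESeq2 called 7, where it called 4.64% of all genes, limma voom 4, where it called 2.85%, the skeletal muscle covariate 0, and leaving out 1 mouse 0 to 3. The log2 fold change of Itgb1 turned from -0.04 to 0.021 in males only and 0.045 in males without mouse 702. Of the partner pairs, 4 passed without mice 649 and 887 and 6 to 12 with 1 mouse left out. Of these changes the cause was not tested. No paired analysis was possible because the labels give each mouse a number of its own and the genotypes share none. The members with few counts, such as Parvg, Itga10 and Itgax, have the least counting precision.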
